A study of Mus musculus with 15 samples.

Results

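A set of 10 genes, out of the 32285 counted in the files, was followed through spermatogenesis because their products drive the exit from meiotic prophase I and the divisions after it. They were chosen by gene symbol: the kinase Cdk1 with its cyclins Ccna1, Ccnb1 and Ccnb2, the activating phosphatase Cdc25c, the Aurora kinases Aurka, Aurkb and Aurkc, the polo kinase Plk1, and Pttg1, which encodes securin. Each of the 10 was present as a single row. The data are single-cell RNA-seq of the testis of DBA/2J males, with 1 testis of 1 mouse per library and 3 libraries in each of 5 groups. In T, mice received the BET bromodomain inhibitor JQ1 at 50 mg/kg intraperitoneally each day for 3 wk, and testes were taken at the end of dosing at 10 wk of age. In R, the same course was followed by 6 wk without drug, and mice were 16 wk old. VC-T and VC-R mice received the vehicle (DMSO in hydroxypropyl-β-cyclodextrin) and were sampled at those same times and ages, whereas UC mice were untreated and 15 wk old. JQ1 binds the bromodomains of the BET family, which includes the testis-specific BRDT but also its somatic relatives, so T is not a BRDT-only perturbation. Age and group cannot be told apart where UC is the control.

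Entry into the meiotic divisions is driven by Cdk1 bound to a cyclin. The B-type cyclins are its general mitotic and meiotic partners, and cyclin A1 is a germ-cell cyclin that male mice need to leave the diplotene stage. Cdc25 phosphatases remove the inhibitory phosphates from Cdk1, and Plk1 promotes that step and later events at spindle poles and kinetochores. Aurora A acts at centrosomes and spindle poles. Auroras B and C are alternative catalytic subunits of the chromosomal passenger complex, with Aurora C being characteristic of germ cells. Securin holds separase inactive until the anaphase-promoting complex marks it for destruction. In spermatocytes, transcripts for division are made long before the divisions take place.

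Promoter sequence is shown for Cdk1, the 3 cyclins and Plk1, the members at the core of Cdk1 activation that had a window, because genes of the late cell cycle often carry a cell cycle genes homology region, written TTTGAA or TTTAAA, near a CCAAT box. RefSeq promoter windows on GRCm38.p6, from 250 bases before to 50 bases after the start, were present for 8 of the 10 members, and windows for Aurkb and Cdc25c were not used here. Both strands were searched. Of 32851 promoters, 27.6% held TTTGAA or TTTAAA, 37.4% held CCAAT and 10.7% held both kinds. Among the members, 5 of 8 held TTTGAA or TTTAAA, namely Ccnb1, Ccnb2, Cdk1, Aurka and Plk1, and all of these also held CCAAT. Ccna1 and Aurkc held only CCAAT, and neither motif was in the Pttg1 window. Ccnb2 and Cdk1 each held 2 matches to TTTGAA or TTTAAA and Plk1 held 3, of which 1 per gene is shown. For Ccnb2 the match shown starts at base -167 from the start and the other at 5, with CCAAT at -87, -54 and -21. For Cdk1 the match shown starts at -71 and the other at -15, with CCAAT on the opposite strand at -208, -80 and -48. For Plk1 the match shown starts at -29 and the others at -89 and 31, with CCAAT at -14. Stretches of 30 bases are given 5′ to 3′ on the strand of the gene, with the motif in capitals.
Ccnb1, chr13:100786511-100786540, minus strand: agcggcccggggTTTAAAcctaagcccggc
Ccnb2, chr9:70421704-70421733, minus strand: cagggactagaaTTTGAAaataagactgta
Cdk1, chr10:69352966-69352995, minus strand: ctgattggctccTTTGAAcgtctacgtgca
Plk1, chr7:122159394-122159423, plus strand: gcgggtttgtatTTTAAAtccccgcggcca
Ccna1, chr3:55055145-55055174, minus strand: gggtggccgctgATTGGctgattcaacaga
In the Ccna1 stretch the capitals mark CCAAT as read on the opposite strand. A match is a description of letters and not of a bound site.

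Libraries held 3407 to 14221 barcodes and 9673587 to 98724984 UMIs, and 72362 cells were kept. No pair of libraries shared more than 25 barcodes. Clusters were made without the 10 members and named from fixed markers, as spermatogonia-like, then as spermatocyte- and spermatid-like, and last as spermatozoa-like cells. Spermatocyte-like cells were cut along pseudotime into 6 segments, S1 to S6, and spermatid-like cells into 4, D1 to D4. In UC, S1 carried the meiotic entry gene Stra8 at 205 CPM (UMIs of a gene scaled to the same total UMIs in every library and set of cells) and the synaptonemal gene Sycp1 at 2826 CPM. The spermatocyte marker Pou5f2 was highest in S5, at 193 CPM, and the acrosomal gene Acrv1 stood at 86.1 CPM in S6 and 231 CPM in D1. A spermatocyte-like cluster of 1955 cells had Aurka, Pttg1 and Ccna1 among its 10 leading genes, although these were not used in clustering. Several libraries and clusters stand apart. VC-T replicate 1, which the study left out of its differential expression, held 1 spermatozoa-like cell and was left out of the fits here. A spermatocyte-like cluster of 473 cells carried the protamine transcript Prm1 at 15379 CPM and gave 212 cells to UC replicate 1 but none to T or to VC-T replicate 1. Another 4 spermatid-like clusters of few UMIs per cell held 9870 cells, of which 7286 were from R, and haemoglobin transcripts led 1 of these clusters. T held 8, 2 and 13 spermatozoa-like cells, so T was not compared there.

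Cdk1 (chr10:69335146-69352938 on mm10), the kinase at the centre of the division machinery, was high at meiotic entry and again at the end of prophase, and it was low by D2. In UC it stood at 55.1 ± 8.62 CPM (SD, n = 3) in spermatogonia-like cells, at 143 ± 19.8 in S1 and at 60.1 ± 3.74 in S2. It then climbed through 150 ± 37.4 in S5 to 161 ± 76.7 in S6, where the 3 libraries were far apart at 79.3, 231 and 172 CPM. The low value belongs to UC replicate 1, and without the cluster that carries protamine it was 90.3 CPM in that library against 235 and 180 in the others. D1 held 67.5 ± 14.2 CPM, D2 19.0 ± 4.55 and D4 3.63 ± 0.355. The fall from D1 to D3 was seen in 14 of 14 libraries.

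Ccna1 (chr3:55045469-55055501), the germ-cell cyclin, was near background early and climbed through all of prophase. Its level in UC was 16.3 ± 15.1 CPM in S1, 37.4 ± 9.16 in S2, 154 ± 29.3 in S4 and 286 ± 74.7 in S6. It was highest in D1, at 394, 332 and 376 CPM in the 3 UC libraries, and still stood at 230 ± 17.9 in D2 before falling to 26.1 ± 2.87 in D4. S6 exceeded S2 in 14 of 14 libraries. D1 exceeded S6 in 9 of 14, so those neighbouring segments were not separated beyond the spread between libraries. An antisense transcript, 4931419H13Rik, overlaps this gene on the opposite strand and was counted as a gene of its own, and whether the counting used strand was not given in the sources used here.

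Ccnb1 (chr13:100778650-100786570), the B cyclin of the dividing cell, had separate premeiotic and late meiotic phases of expression. In UC it was 120 ± 29.3 CPM in spermatogonia-like cells, 12.4 ± 5.50 in S2, 34.8 ± 7.31 in S4 and 160 ± 37.1 in S6. Its highest level was again in D1, at 226, 193 and 215 CPM, and D1 exceeded S6 in 12 of 14 libraries. S6 exceeded S2 in 14 of 14 libraries, and no fold is given because S2 was at the level of background RNA.

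Ccnb2 (chr9:70407692-70421547), the second B cyclin, never fell to a low level in spermatocytes. It stood at 176 ± 8.16 CPM in S2 of UC, 142 ± 10.2 in S3 and 226 ± 48.9 in S6, and S6 exceeded S2 by only 1.28-fold, although in 14 of 14 libraries. D1 held 306, 366 and 357 CPM in the UC libraries, and 194 ± 20.8 remained in D3, where Ccnb1 had come down to 63.0 ± 1.87. Ccnb2 was the B cyclin that fell least from D1 to D3, by 0.566-fold in UC against 0.298-fold for Ccnb1.

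Cdc25c, the phosphatase that activates Cdk1, was highest in spermatid-like cells, later than the kinase. Before its late rise it was also present in UC at 15.3 ± 7.49 CPM in spermatogonia-like cells and 7.36 ± 1.70 in S1. In UC spermatocyte-like cells it was 0.517 ± 0.895 CPM in S4, with UMIs in 1 library of 3, 6.70 ± 1.77 in S5 and 15.4 ± 5.25 in S6. It reached 31.3 ± 4.29 CPM in D1 and 33.6 ± 7.82 in D2, and 17.8 ± 2.32 remained in D4. The segments from D1 to D3 did not differ beyond the spread between libraries, since D3 exceeded D1 in 7 of 14. The gene Gm3550 overlaps Cdc25c on the opposite strand and was counted separately.

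Among the Aurora kinases, Aurka (chr2:172356190-172370535) climbed steadily in UC from 68.2 ± 16.2 CPM in S1 and 91.0 ± 22.3 in S2 to 217 ± 6.94 in S4 and 277 ± 46.5 in S5. S6 held 178, 356 and 320 CPM in the 3 UC libraries, again with replicate 1 lowest, and 346, 361 and 321 without the cluster that carries protamine. The level was 242, 221 and 216 CPM in D1 and 68.4 ± 19.9 in D2.
Aurkb (chr11:69045647-69051664) had 2 peaks, with 72.3 ± 30.4 CPM in spermatogonia-like cells, 3.19 ± 2.78 in S1 and 44.2 ± 26.3 in S6. It was 4.73 ± 2.99 CPM by D2. Aurkc (chr7:6995300-7003091) was at 3.75 ± 3.58 CPM in spermatogonia-like cells, 19.6 ± 5.21 in S2, 47.6 ± 2.10 in S4 and 48.4 ± 16.1 in S6. Without the cluster that carries protamine, S6 held 57.2, 63.1 and 53.8 CPM in the 3 UC libraries. Aurkc was higher in S6 than in spermatogonia-like cells in 14 of 14 libraries, whereas Aurkb was in 3 of 14. No fold is given for Aurkc, because its lowest UC library held 0 CPM in spermatogonia-like cells.

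Plk1 (chr7:122159439-122169873), the polo kinase, followed Ccnb1 closely. It stood at 46.4 ± 16.8 CPM in spermatogonia-like cells of UC, 8.68 ± 10.6 in S1, 37.0 ± 2.85 in S4, 119 ± 49.4 in S6 and 135 ± 14.8 in D1. Its level was 89.6 ± 13.3 CPM in D2 and 6.44 ± 2.83 in D4. Without the cluster that carries protamine, Plk1 in S6 of UC was at 123, 140 and 151 CPM, against 124 to 152 in D1. Pttg1 (chr11:43420250-43426251), encoding securin, was already high in S1 of UC, at 149 ± 38.1 CPM, and its UC mean was highest in S5, at 287 ± 28.7. In T, R, VC-R and VC-T its mean was highest in S6. Without the cluster that carries protamine, UC held 311, 301 and 251 CPM in S5 and 289, 281 and 309 in S6, which overlap. Pttg1 fell earlier than the cyclins, to 155 ± 34.3 CPM in D1 and 72.3 ± 5.64 in D2, and D1 lay below S6 in every one of the 14 libraries.

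**Figure D1:**
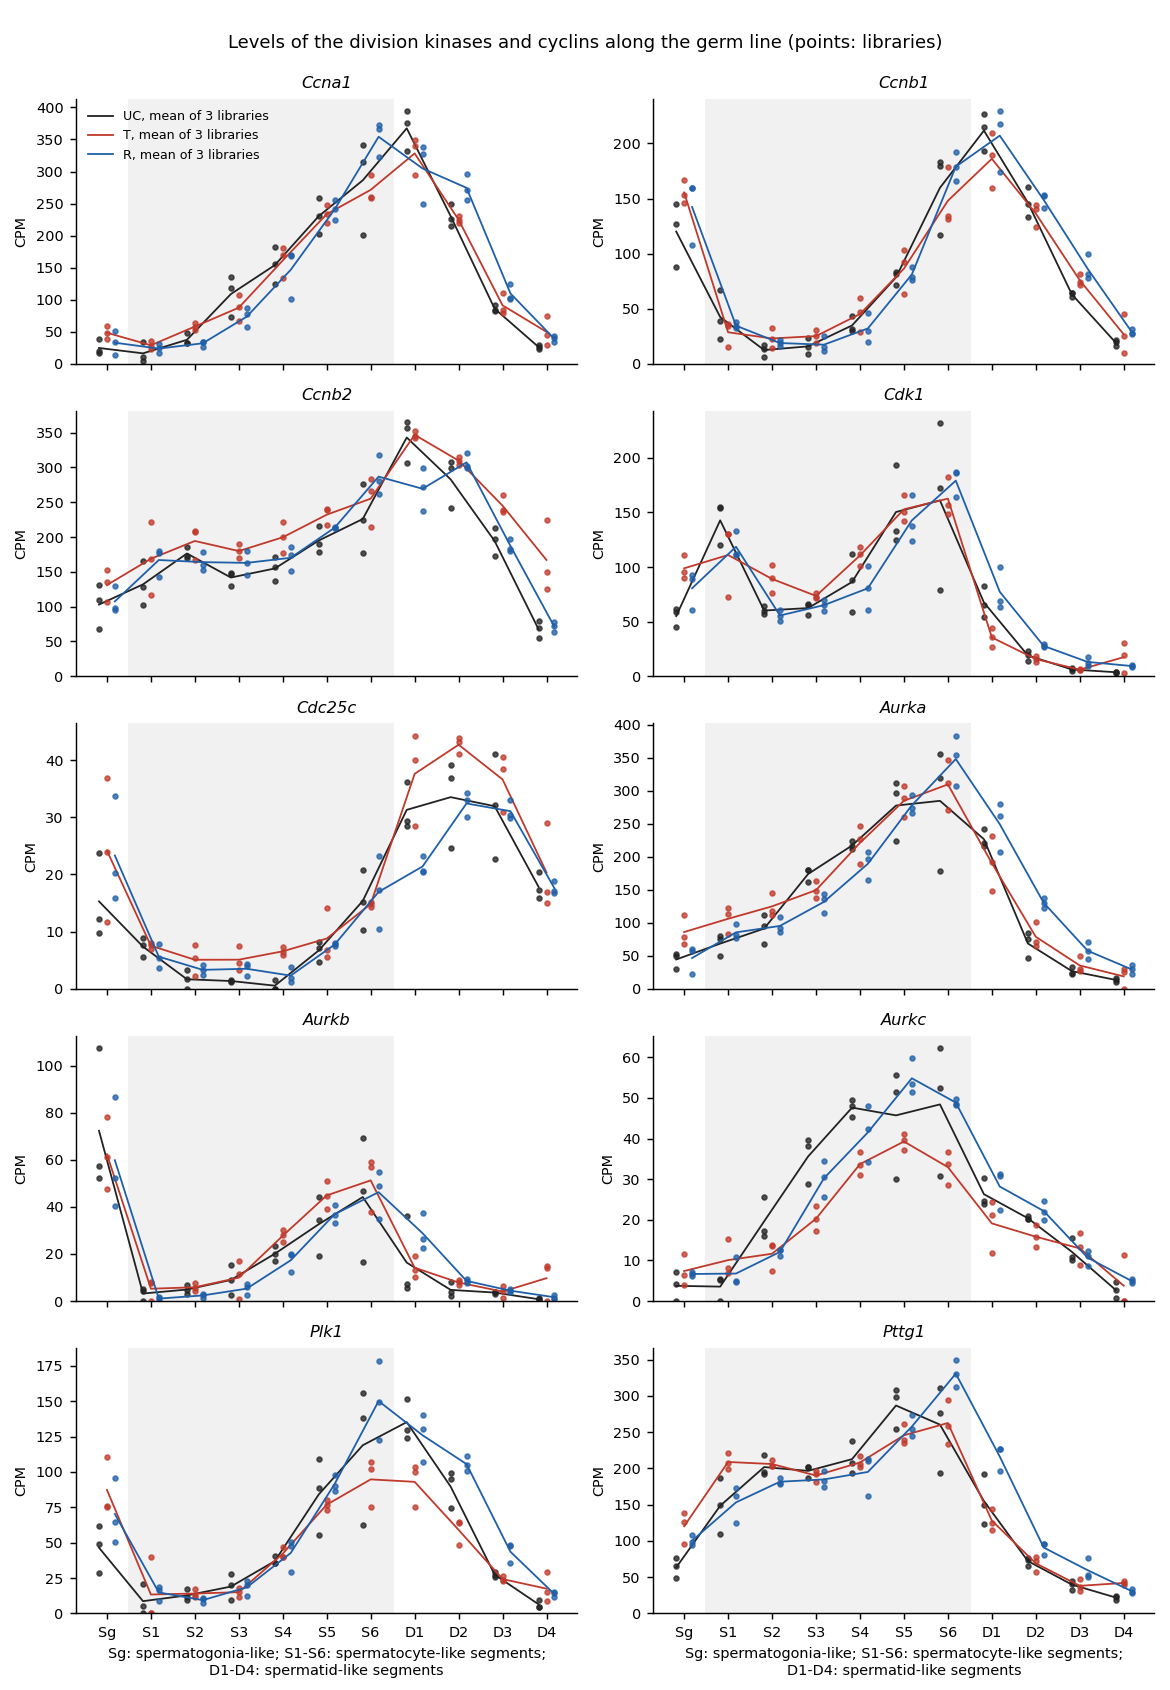
Level of each member (CPM, vertical axis from 0, 1 panel per gene) in spermatogonia-like cells (Sg), spermatocyte-like segments S1 to S6 (shaded) and spermatid-like segments D1 to D4, with points for libraries and lines for the means of UC (black), T (red) and R (blue). In UC the means of Ccna1, Ccnb1, Ccnb2 and Plk1 are highest in D1, those of Cdk1, Aurka and Aurkc in S6, that of Pttg1 in S5, that of Cdc25c in D2 and that of Aurkb in spermatogonia-like cells.

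The order in which the members peaked was read from 51 pseudotime bins of equal cell number, in which spermatocyte-like cells make up most of bins 2 to 12 and spermatid-like cells most of bins 13 to 31. For each library the level was taken over windows of 3 bins with at least 20 cells, between bins 2 and 30. Over the 8 control libraries, the median peak came at bin 10.5 for Aurkc, 11 for Cdk1 and Aurkb, 11.5 for Pttg1 and 13 for Aurka. The cyclins and Plk1 came next, with medians of 14 for Ccnb1 and Ccnb2 and 14.5 for Ccna1 and Plk1, and Cdc25c was last at 18. Neighbours in that order overlapped in range, as Aurkc peaked between bins 9 and 12 and Pttg1 between 10 and 13, whereas the ranges of Aurkc (9 to 12) and Cdc25c (16 to 24) did not. Cdk1 peaked between bins 10 and 13 in UC, but at bin 2 in VC-R replicate 3, where its level at meiotic entry was the higher one. The first later bin at under 50% of the peak differed more between members. It came at a median of bin 14 for Aurkb and Aurkc, 15 for Cdk1, 16 for Pttg1, 17 for Aurka, 20 for Ccna1, 20.5 for Plk1, 21.5 for Ccnb1, 24.5 for Ccnb2 and 28.5 for Cdc25c. In T the median peak was at bin 9 for Aurkc, 11 for Cdk1 and Aurkb, 12 for Aurka, 13 for Plk1 and Pttg1, 14 for Ccna1 and Ccnb1, 16 for Ccnb2 and 19 for Cdc25c. In R it was at bin 11 for Aurkc and Cdk1, 12 for Aurka, Aurkb and Pttg1, 15 for Plk1, 16 for Ccna1 and Ccnb1, 18 for Ccnb2 and 21 for Cdc25c. Aurkc and Cdk1 were thus early and Cdc25c last in each of the 3 sets, and shifts of the peaks between groups were not tested.

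**Figure D2:**
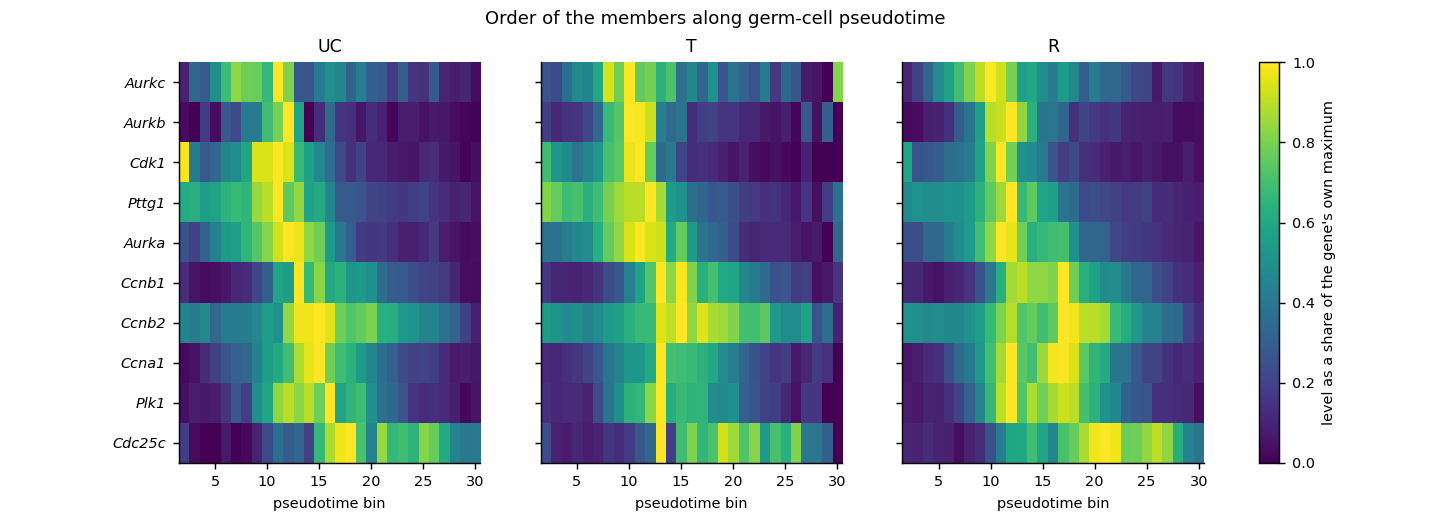
Heat map of the mean CPM of each member (rows, ordered by median peak in the control libraries) over pseudotime bins 2 to 30 (horizontal axis) in UC, T and R, coloured as a share of the gene's own maximum in that panel. In UC and R the bright bins move rightward from Aurkc to Cdc25c, whereas in T the brightest single bin of Cdc25c is bin 13. Cdk1 in UC is about as high in bin 2 (157 CPM) as in bin 11 (159.8 CPM), and the bright last bin of Aurkc in T rests on 28 cells.

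Background RNA limits what the low levels mean. Each cell with at least 2000 UMIs was thinned to 2000 UMIs, and the share of cells with a UMI was compared with macrophage-like cells (146 such cells of 292, median 2000.5 UMIs before thinning), which should not be in meiosis. In S6 of UC, 35.2% of 330 cells carried Ccna1 after thinning against 11.1% of macrophage-like cells, and the unthinned shares were 59.9% and 12.3%. Aurka was carried by 33.0% against 4.11%, Pttg1 by 34.4% against 6.32% and Plk1 by 16.2% against 6.65%. The median depth was 5009.5 UMIs in S6. Values at both ends of the germ line were at or below that background. Ccna1 was carried by 4.16% of spermatogonia-like cells of UC and by 6.48% of S2 cells. In S2 Ccnb1 was carried by 2.64% and Plk1 by 2.98%, against 8.62% of macrophage-like cells for Ccnb1. In D4 of UC every member but Cdc25c was at or below the macrophage-like share, with Ccna1 at 4.78%, Ccnb2 at 11.1%, Plk1 at 1.45% and Aurka at 2.55%. Cdk1 was already below it in D3, at 1.35% against 4.47%. Those values are read as background. Most of the macrophage-like cells used, 130 of 146, came from R.

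With UC cells pooled in each bin, Aurka and Pttg1 had the most alike profiles of any pair of members, with a Pearson r of log2(CPM + 1) of 0.957 over 51 bins that share libraries. Cdk1 and Pttg1 followed at 0.922 and Ccnb1 and Plk1 at 0.912, whereas Cdc25c and Cdk1 were at -0.115. Among the 5910 genes with a mean of at least 20 CPM, the genes most like each member were Dydc1 for Ccna1 (r = 0.969), N4bp2l2 for Ccnb1 (0.912), Med28 for Ccnb2 (0.980), Diablo for Cdk1 (0.958) and Rhno1 for Cdc25c (0.897). They were Znhit3 for Aurka (0.963), Wrn for Aurkb (0.856), Arsa for Aurkc (0.947), Ckap2l for Plk1 (0.929) and Gps1 for Pttg1 (0.975). The next most like were Pdzd9 for Ccna1 (0.944), Gid8 for Ccnb1 (0.904), Cetn3 for Ccnb2 (0.978), Bod1 for Cdk1 (0.947) and Gm595 for Cdc25c (0.849). For the rest they were Ddt for Aurka (0.963), Spc25 for Aurkb (0.805), Cfap298 for Aurkc (0.941), Rmnd5b for Plk1 (0.925) and Dnttip1 for Pttg1 (0.973). These correlations describe likeness along 1 trajectory and carry no test.

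In spermatocyte-like cells at the end of treatment, none of the 10 division genes was called changed. UMIs were summed per library, all genes were fitted with the quasi-likelihood test of edgeR, and a gene was called at a Benjamini-Hochberg adjusted p under 0.05 with an absolute log2 fold change over 1. Of 13898 genes tested in T against UC, 620 were called (4.46%), of which 113 were higher and 507 lower. Of the 10 members, 0 were called and 1 had an unadjusted p under 0.05. DESeq2 also called 0 of the 10. The median absolute log2 fold change was 0.15 over the members and 0.22 over all genes. Depth differed between the groups. The median spermatocyte-like cell held 3435.5 to 5198 UMIs in the T libraries, 6296 to 8547 in UC and 11147 to 21278 in R. The part of depth in the fold changes was not tested beyond the fit of cells with at least 2000 UMIs.

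Aurkc, the germ-cell Aurora, had the largest absolute log2 fold change. It measured 28.2, 31.3 and 24.2 CPM in the 3 T libraries, 36.3, 34.2 and 40.8 in UC, 37.3 and 43.1 in VC-T replicates 2 and 3, and 33.6 in VC-T replicate 1. VC-R stood at 43.7, 28.4 and 30.4 CPM. Every T library lay below every UC and VC-T library, but replicates 2 and 3 of VC-R, a vehicle group, lay inside the T range. The log2 fold change was -0.51 ± 0.16 (SE), with an edgeR adjusted p of 0.0635 that ranged from 0.0287 to 0.213 over 17 alternatives. It was under 0.05 in 4 of them, among which is the fit with equal numbers of cells per pseudotime bin, at -0.53 ± 0.16 and an edgeR adjusted p of 0.0287.
Ccnb2, Cdk1, Cdc25c and Aurkb were higher in each T library than in each UC library, with small differences. Ccnb2 measured 226, 215 and 189 CPM in T and 174, 160 and 181 in UC. Its log2 fold change of 0.19 ± 0.10 had an edgeR adjusted p of 0.254, and of 0.0128 at 0.32 ± 0.09 in the fit with equal cells per bin. For Ccna1 the T libraries measured 168, 173 and 141 CPM and UC 163, 131 and 179, so the groups overlapped. Cdk1 was at 116, 121 and 115 CPM in T against 98.4, 96.0 and 114 in UC, with a log2 fold change of 0.09 ± 0.10, and VC-T replicates 2 and 3 were above T at 122.7 and 129.7 CPM. Cdc25c measured 9.75, 7.34 and 6.26 CPM in T and 5.25, 4.94 and 5.42 in UC. Aurkb measured 27.1, 30.7 and 24.8 CPM in T and 19.6, 16.6 and 23.2 in UC, with VC-R replicate 1 at 29.8, inside the T range. The other fitted values were -0.05 ± 0.31 for Ccnb1, -0.08 ± 0.19 for Ccna1, 0.00 ± 0.13 for Aurka, 0.37 ± 0.22 for Aurkb, -0.19 ± 0.24 for Plk1, -0.11 ± 0.08 for Pttg1 and 0.49 ± 0.24 for Cdc25c. None of these reached an edgeR adjusted p under 0.05. The TMM scaling lowers the T to UC ratio of CPM by 0.10 on the log2 scale in these cells, so fitted values lie below ratios of the CPM.

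**Figure D3:**
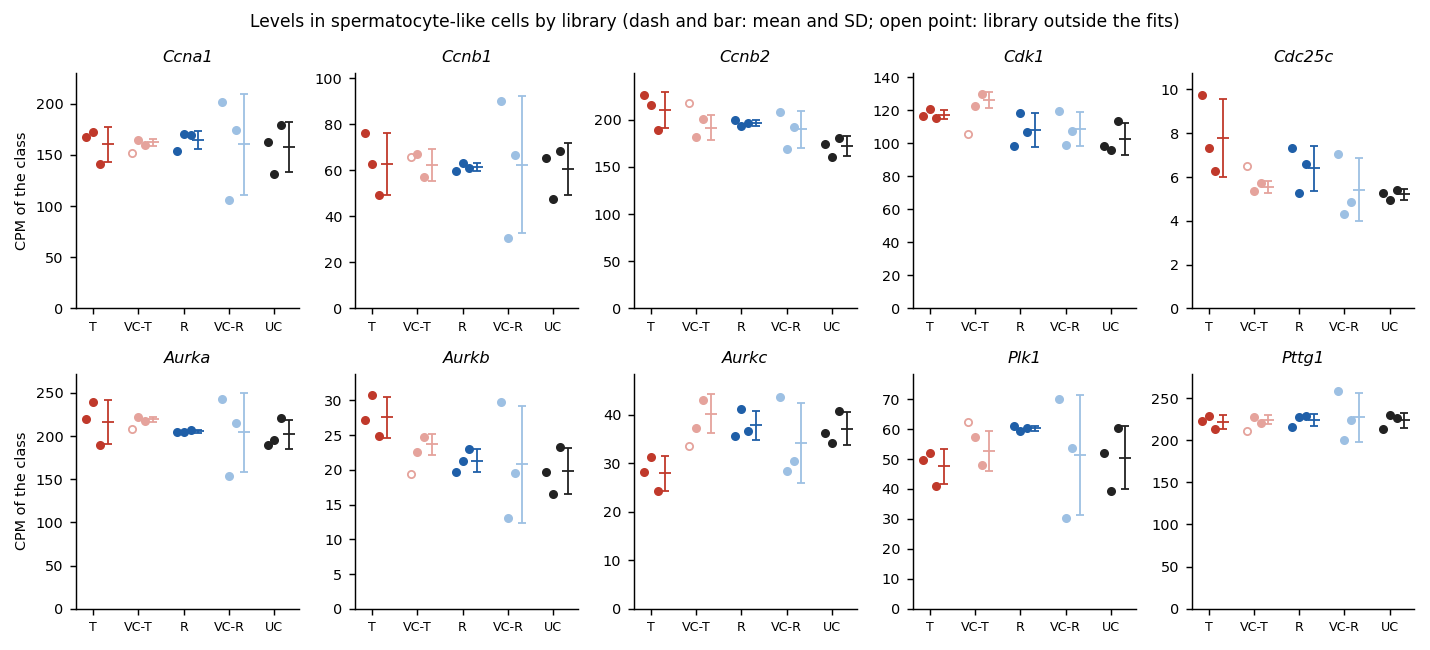
Level of each member (CPM, vertical axis starting at 0) in spermatocyte-like cells of each library, by group, with a dash and bar for the mean and SD and an open point for VC-T replicate 1, which is outside the fits and the means. The Aurkc points of T, between 24.2 and 31.3 CPM, all lie below those of UC, between 34.2 and 40.8 CPM.

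After 6 wk of recovery, no member was called in spermatocyte-like cells, as was the case for all but 1 of 13898 genes (0.0072%). At an unadjusted p under 0.05 the count of members was also 0, and DESeq2 called 0. The largest absolute log2 fold change was 0.21, for Cdc25c, with an SE of 0.24. Aurkc measured 35.5, 41.1 and 36.7 CPM in R. Replicate 2 was just above the highest UC library (40.8) and the others lay inside the UC range, and the log2 fold change was -0.06 ± 0.16.

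Within the 6 segments of spermatocyte-like cells, 52 pairs of member and segment passed the filter on low counts in T against UC. None was called, against 3.04% of all gene and segment pairs, and 12 had an unadjusted p under 0.05. With the adjusted p alone, 2 pairs passed, against 7.02% of all pairs. These were Aurkc in S3 and Pttg1 in S5. Aurkc in S3 measured 20.2, 23.4 and 17.1 CPM in T and 38.3, 28.8 and 39.7 in UC, with a log2 fold change of -0.89 ± 0.23 and an edgeR adjusted p of 0.0126. VC-T replicates 2 and 3 stood at 27.7 and 41.8 CPM, VC-T replicate 1 at 22.5. The adjusted p ranged from 0.00935 to 0.191 over 16 alternatives, and without UC replicate 2 the gene was called, at -1.02 ± 0.25. The median S3 cell held 3235 to 4639 UMIs in the T libraries and 8602.5 to 11013 in UC. Pttg1 in S5 measured 236, 262 and 240 CPM in T and 308, 299 and 254 in UC, which overlap, with a log2 fold change of -0.28 ± 0.09 and an edgeR adjusted p of 0.0472 (0.00197 to 0.341 over the alternatives).

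In the other segments Aurkc did not pass the test against UC. In S2 it was 13.6, 13.8 and 7.47 CPM in T and 16.1, 25.6 and 17.1 in UC, at -0.69 ± 0.36 with an edgeR adjusted p of 0.347, and R had a like value of -0.73 ± 0.36. Against the same-time vehicle group Aurkc in S2 was called lower in T, with an edgeR adjusted p of 0.0255. Over 16 alternatives its log2 fold change there ranged from -1.25 to -0.39. It was 33.5, 36.6 and 30.98 CPM in T against 49.5, 48.1 and 45.3 in UC in S4, at -0.58 ± 0.19 with an edgeR adjusted p of 0.0722. In S5 the value was -0.33 ± 0.18 with an edgeR adjusted p of 0.291, and the T libraries lay inside the range of UC. In S6 it was -0.66 ± 0.26 with an edgeR adjusted p of 0.177. S6 is the segment in which UC replicate 1 is set apart by the cluster that carries protamine. Without that cluster, an alternative added after seeing the data, Aurkc in S6 measured 33.6, 36.6 and 28.7 CPM in T and 57.2, 63.1 and 53.8 in UC. The log2 fold change became -0.80 ± 0.22, with an edgeR adjusted p of 0.0265. Plk1 in S6 without the cluster was 107, 102 and 75.5 CPM in T and 123, 140 and 151 in UC, at -0.57 ± 0.15 with an edgeR adjusted p of 0.0198. Each T library was below each UC library for both kinases there, though neither passed the fold threshold. VC-R replicate 2, with 35 cells there, lay inside the T range for both, at 32.6 CPM for Aurkc and 106 CPM for Plk1. In R against UC, 0 of 52 pairs were called (0.172% of all pairs) and 1 had an unadjusted p under 0.05, which was Aurka in S3, at -0.42 ± 0.11 with an edgeR adjusted p of 0.147. DESeq2 called 0 of these pairs in R as well.

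**Figure D4:**
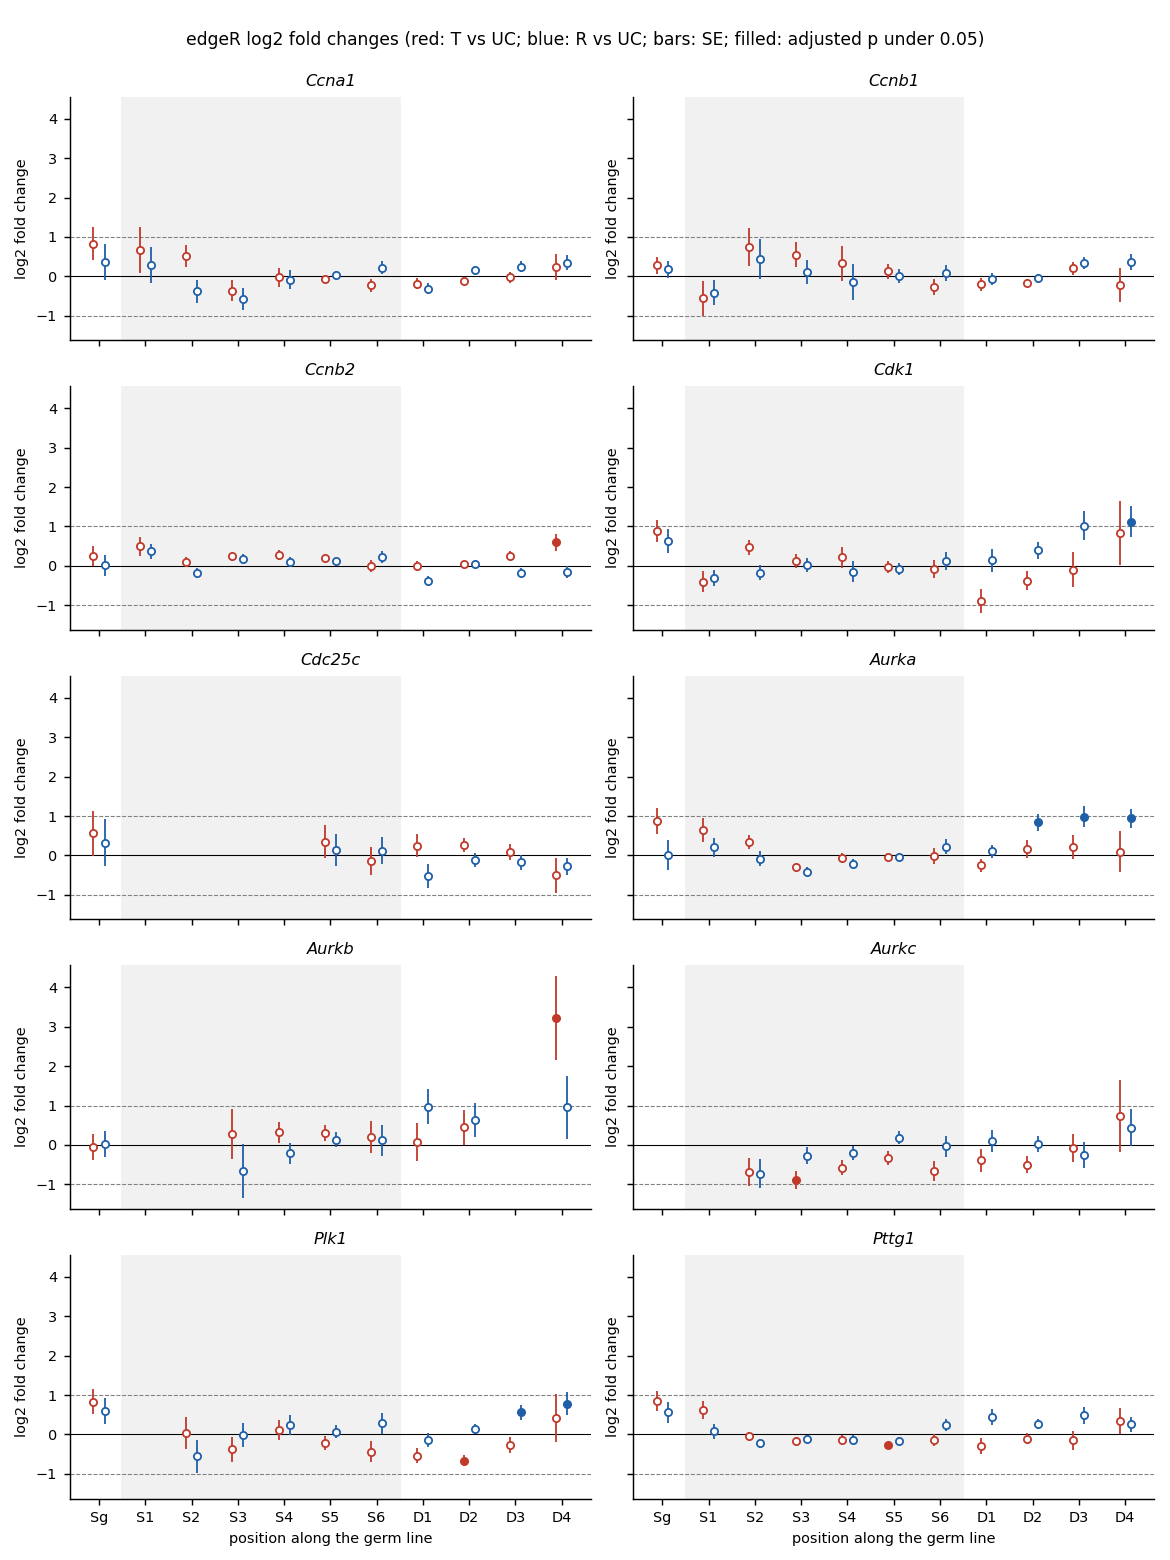
Log2 fold change against UC (vertical axis, edgeR, bars SE, 1 panel per gene) in spermatogonia-like cells, S1 to S6 (shaded) and D1 to D4, for T (red) and R (blue), where filled points have an adjusted p under 0.05 and dashed lines mark the fold threshold. Aurkc in T is filled in S3 at -0.89, Plk1 in T in D2 at -0.67, and Aurka in R in D2, D3 and D4 at 0.84, 0.98 and 0.94, while pairs that did not pass the filter have no point.

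The distribution of spermatocyte-like cells over the segments describes how many had come to the end of prophase. S6 held 15.6%, 14.7% and 13.8% of them in T (exact binomial 95% intervals 14.3 to 17.0%, 13.2 to 16.4% and 11.9 to 15.8%, which cover counting error only). In UC it held 40.1%, 12.2% and 18.8%, and the first of these is the library with 212 cells of the cluster that carries protamine. The mean was 14.7 ± 0.931% (SD, n = 3) in T and 19.6 ± 11.7% (n = 5) in UC with VC-T replicates 2 and 3. The difference of -4.93 percentage points had a two-sided exact permutation p of 0.7321, where the smallest possible is 0.0179. Without the cluster the difference was 0.945 points with an exact permutation p of 0.6071, so its sign depends on those cells. R held 14.4%, 13.7% and 11.2%, and the difference of -7.20 points from UC with VC-R had an exact permutation p of 0.3333 against a smallest possible of 0.0119. No shift in the share of cells in the last segment was detectable with these libraries. The first segment was small in T. It held 3.42%, 1.72% and 3.05% of T cells and 2.20% in VC-T replicate 1, against 8.70%, 19.1% and 24.5% in UC, 43.8% and 24.2% in VC-T replicates 2 and 3, and 17.8%, 21.6% and 25.4% in R. T was below every other library except VC-T replicate 1. That difference was not tested, and its part in the class-level values of T was not tested except through the fit with equal cells per bin.

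**Figure D5:**
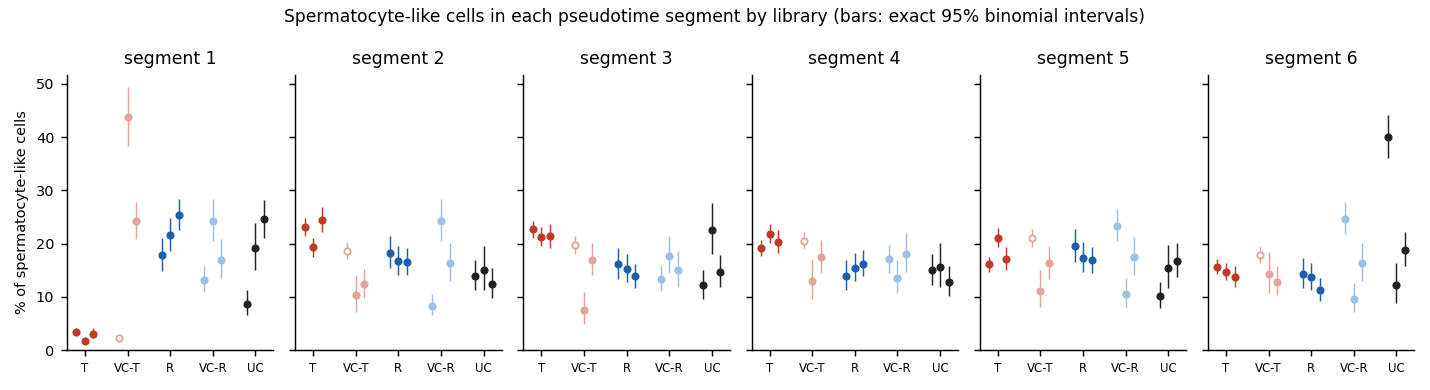
Share of spermatocyte-like cells in each pseudotime segment (percent, vertical axis, 1 panel per segment) by library and group, with exact 95% binomial intervals and an open point for VC-T replicate 1. S1 holds between 1.72% and 3.42% in T and between 8.70% and 24.5% in UC, and S6 holds 40.1% in UC replicate 1 but 13.8 to 15.6% in T.

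In spermatogonia-like cells, where the mitotic divisions occur, 9 members passed the filter and Aurkc did not. None was called in T against UC, against 3.15% of 8538 genes, and 4 had an unadjusted p under 0.05. DESeq2 called none. Their median log2 fold change was nevertheless 0.83, beside 0.01 over all genes. Pttg1 measured 125, 139 and 96.5 CPM in T and 48.8, 65.5 and 76.2 in UC, at 0.84 ± 0.25 with an edgeR adjusted p of 0.0500. Cdk1 measured 89.8, 95.5 and 111 CPM in T and 58.5, 61.4 and 45.2 in UC, at 0.88 ± 0.29 with an edgeR adjusted p of 0.0695. For both genes the T libraries lay above all UC libraries and above VC-T replicates 2 and 3, but VC-T replicate 1 stood at 106 CPM for Pttg1, inside the T range. Over 15 alternatives the adjusted p ranged from 0.00296 to 0.691 for Pttg1 and from 0.0367 to 0.754 for Cdk1. Aurka was at 0.89 ± 0.33, Plk1 at 0.83 ± 0.32 and Ccna1 at 0.83 ± 0.42, whereas Aurkb was at -0.05 ± 0.32. Among cells with at least 2000 UMIs, Cdk1, Aurka, Plk1 and Pttg1 were called higher, and with the vehicle group as control only Ccna1 was. Summed markers of later germ cells were also higher in T than in UC. Spermatid markers summed to between 206 and 518 CPM in the spermatogonia-like cells of T and between 106 and 176 in UC, with 6 of 6 above the UC mean. The range was 271 to 391.5 CPM in R and 47.4 to 557 in VC-R. Spermatocyte markers summed to 1228 to 1362 CPM in T and 986 to 1161 in UC, with 5 of 6 above the UC mean. No marker of either list was at 0 in T, and their part in the members' values was not tested. In R, 0 members were called (0.0234% of all genes), 2 had an unadjusted p under 0.05 and the median log2 fold change was 0.33, while DESeq2 called 0.

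In spermatid-like cells, which inherit transcripts made before the divisions, T differed from UC at 18.1% of 15707 genes, most of them lower, and 0 of 10 members were called. With 10 members, a count of 0 does not set them apart from that share. DESeq2 also called none, and 6 members had an unadjusted p under 0.05. With the adjusted p alone 3 members passed, against 40.6% of all genes, and all 3 were higher. Ccnb2 measured 290.0, 292 and 309 CPM in T and 177, 161 and 203 in UC, at 0.45 ± 0.11 with an edgeR adjusted p of 0.00326. Ccna1 measured 201, 215 and 207 CPM in T and 130, 106 and 145 in UC, at 0.45 ± 0.16 with an edgeR adjusted p of 0.0324. Aurkb measured 9.68, 8.57 and 7.08 CPM in T and 2.67, 4.81 and 4.20 in UC, at 0.87 ± 0.26 with an edgeR adjusted p of 0.0116, and was called at 1.10 ± 0.30 without UC replicate 2. The T and UC libraries did not overlap for these genes, but vehicle libraries fell inside the T range. VC-R replicate 1 stood at 202 CPM for Ccna1, and VC-T replicate 1, which is outside the fit, at 291 CPM for Ccnb2. The adjusted p was under 0.05 in 15 of 17 alternatives for Ccnb2 and in 13 of 17 for Aurkb. TMM scaling lowers the ratio of CPM by 0.26 on the log2 scale here.

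The spermatid-like cells of T lay earlier in pseudotime. D4 held 4.57%, 2.98% and 3.78% of them in T and 31.7%, 38.5% and 31.5% in UC. VC-T replicate 1, a vehicle library, held 1.22% there, less than any T library, and VC-T replicates 2 and 3 held 24.99% and 35.8%. Spermatozoa markers summed to 2878 to 3084 CPM in T against 5259 to 6131 in UC, with 0 of 5 above the UC mean. When cells were matched by pseudotime bin, Ccna1 was at -0.09 ± 0.09, Ccnb2 at 0.10 ± 0.08 and Aurkb at 0.55 ± 0.38, with edgeR adjusted p of 0.554, 0.430 and 0.385. The same fit gave Plk1 at -0.61 ± 0.15 with an edgeR adjusted p of 0.00910, although over all spermatid-like cells it was 0.05 ± 0.17. At equal pseudotime neither cyclin passed the test, and Plk1 passed as lower.

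By segment, added after seeing the data, 39 pairs of member and segment were tested in T and 1 was called, against 6.44% of all pairs. With the adjusted p alone 3 passed, against 10.5% of all pairs. Plk1 in D2 measured 64.0, 64.7 and 48.5 CPM in T and 74.4, 95.2 and 99.2 in UC, and every T library was below every control library, the lowest of which was 70.9 CPM in VC-T replicate 3. The log2 fold change was -0.67 ± 0.14 with an edgeR adjusted p of 0.00200, and it stayed under 0.05 in 15 of 16 alternatives, the exception being the fit without UC replicate 3, at 0.0556. The called pair was Aurkb in D4, at 3.22 ± 1.06 with an edgeR adjusted p of 0.0200. It rests on 5, 0 and 1 UMIs in the T libraries, which held 107, 44 and 33 cells there, and it was lost without T replicate 1, without T replicate 3, without UC replicate 3 and, with an edgeR adjusted p of 0.102, without the 4 clusters of few UMIs. The other was Ccnb2 in D4, at 0.60 ± 0.23 with an edgeR adjusted p of 0.0460, measured at 150, 126 and 225 CPM in T and 68.7, 54.7 and 78.6 in UC. Without those clusters it was the called pair instead, at 1.01 ± 0.29 with an edgeR adjusted p of 0.0164. Scaling matters most in that segment, where TMM lowers the ratio of CPM by 0.72 on the log2 scale. Depth differed there too, as the median D4 cell held 1260.5 to 1531 UMIs in the T libraries and 4447.5 to 6145.5 in UC. In D1, Cdk1 measured 43.7, 36.2 and 26.6 CPM in T and 82.6, 54.4 and 65.5 in UC, with no overlap, at -0.90 ± 0.31 and an edgeR adjusted p of 0.170 (0.0112 to 0.467 over 16 alternatives). Plk1 in D1 was at -0.54 ± 0.18 with an edgeR adjusted p of 0.158. Without the 4 clusters of few UMIs it was at -0.64 ± 0.16 with an edgeR adjusted p of 0.0223.

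In R, spermatid-like cells showed 0 called members against 4.44% of all genes, and 4 had an unadjusted p under 0.05, while DESeq2 called none. By segment 1 of 39 pairs was called, against 5.25%, and with the adjusted p alone 6 passed, against 15.9%. Aurka made up 3 of the 6. It measured 138, 122 and 129.6 CPM in D2 of R and 83.6, 45.9 and 75.7 in UC, at 0.84 ± 0.22 with an edgeR adjusted p of 0.0266. VC-R stood at 126, 66.7 and 91.1 CPM, so its first replicate fell inside the range of R. In D3 Aurka was at 0.98 ± 0.27 and in D4 at 0.94 ± 0.25, with edgeR adjusted p of 0.0204 and 0.00656. Of 15 alternatives, 10 in D2, 10 in D3 and 12 in D4 kept an adjusted p under 0.05. Cdk1 in D4 was the called pair, with 9.47, 8.38 and 10.1 CPM in R and 3.95, 3.25 and 3.70 in UC, at 1.12 ± 0.39 with an edgeR adjusted p of 0.0305. VC-R stood at 7.26, 2.09 and 1.26 CPM, below each R library, and the pair was called in 6 of 15 alternatives. These levels are at background. After thinning, 2.67% of D4 cells of R and 1.03% of UC carried Cdk1, against 4.47% of macrophage-like cells (unthinned, 4.76%, 2.31% and 4.80%). Plk1 passed in D3 at 0.56 ± 0.19, where the thinned shares were 8.42% in R and 4.997% in UC against 6.65% of macrophage-like cells. In D4 it passed at 0.78 ± 0.29, but its shares of 3.97% in R and 1.45% in UC were both below that background. For Aurka the shares in D4 were 8.65% in R and 2.55% in UC, against 4.11%. The median cell of D4 held 1627.5 to 2610 UMIs in the R libraries and 4447.5 to 6145.5 in UC, and that of D3 held 1312 to 1894 and 3825.5 to 5620. In D2 the R libraries, at 2204 to 5683.5 UMIs, spanned those of UC, at 4133 to 4901. The part of depth in these values was not tested. Without the 4 clusters of few UMIs, Aurka was at 0.84 ± 0.23 in D2 and 0.91 ± 0.23 in D3, with edgeR adjusted p of 0.0349 and 0.0178. In D4 it was then at -0.02 ± 0.26 and Cdk1 at 0.47 ± 0.44, with edgeR adjusted p of 0.994 and 0.823. With 597 cells per library matched by pseudotime bin over all spermatid-like cells, Aurka was higher in R at 0.88 ± 0.12 with an edgeR adjusted p of 3.02e-07. In that fit Cdk1 was at 0.62 ± 0.18, Pttg1 at 0.40 ± 0.12, Ccna1 at 0.39 ± 0.09 and Plk1 at 0.33 ± 0.11. Their edgeR adjusted p values were 0.00533, 0.00701, 0.000782 and 0.0188, and none passed the fold threshold. The matching was by bin and not by depth. Without matching, Aurka in this class was at 0.50 ± 0.24 with an edgeR adjusted p of 0.124, and 3 of 16 alternatives gave one under 0.05. Without the 4 clusters of few UMIs it was at 0.70 ± 0.25 with an edgeR adjusted p of 0.242. Those of Cdk1, Pttg1, Ccna1 and Plk1 then lay between 0.323 and 0.454.

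In spermatozoa-like cells only R could be compared with UC. There 0 of 10 members were called, against 0.897% of 12933 genes, 1 had an unadjusted p under 0.05, and DESeq2 called 0. Ccnb2 measured 26.8, 25.8 and 29.3 CPM in R and 21.4, 16.4 and 23.6 in UC, at 0.32 ± 0.13 with an edgeR adjusted p of 0.225. All members stood low in these cells, with UC means between 1.198 CPM for Aurkb and 27.6 CPM for Ccna1.

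The members' partners were followed with a list of 51 further genes of the same machinery. In spermatocyte-like cells 48 passed the filter, and in T against UC none was called higher and 1 was called lower. The median over the 48 log2 fold changes was 0.01. The gene called lower was Ccnb3, a cyclin of early meiotic prophase, at -3.39 ± 0.64 with an edgeR adjusted p of 0.00612. It measured 0.152, 0.345 and 0.605 CPM in T and 1.37, 5.29 and 3.47 in UC, from 2, 4 and 3 UMIs against 6, 15 and 16. VC-T replicate 1 held 1 UMI and VC-T replicates 2 and 3 held 59 and 18. The share of cells in S1 was low in the same T libraries and in VC-T replicate 1, as given above, and within S1 the log2 fold change was -2.04 ± 0.64 with an edgeR adjusted p of 0.0193. None of the 6 chromosomal passenger and Aurora partners, the 11 spindle checkpoint and polo-related kinases or the 19 tested genes of the anaphase-promoting complex was called in T or in R in spermatocyte-like cells.

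In spermatid-like cells 45 of the list were tested. In T, 2 were called lower and 2 higher, in a comparison in which 18.1% of all genes were called. Arpp19, whose product inhibits the phosphatase that opposes Cdk1, was lower at -1.02 ± 0.13, measured at 67.3, 59.0 and 54.0 CPM in T and 102, 104 and 101 in UC. Cdc16, a subunit of the anaphase-promoting complex, was lower at -1.09 ± 0.16, with 56.6, 48.1 and 58.7 CPM in T and 95.7, 106 and 86.9 in UC. VC-T replicate 1 stood at 64.3 CPM for Arpp19, inside the T range, and at 68.2 CPM for Cdc16, between T and UC. Their edgeR adjusted p values were 5.94e-06 and 1.63e-05. Cdc23, another subunit of that complex, was higher at 1.13 ± 0.37, and so was the Cdk-binding gene Cks1b at 1.13 ± 0.43, with edgeR adjusted p of 0.0213 and 0.0439. VC-R replicate 1 stood inside the T range for Cdc23, at 5.93 CPM. All of these calls were kept without the 4 clusters of few UMIs. Within D4 of T, Arpp19 was also lower, at -1.06 ± 0.25, and at -0.88 ± 0.26 without those clusters. In R, 1 of 45 was called, Anapc1, against 4.44% of all genes, at 1.47 ± 0.46 with an edgeR adjusted p of 0.0274. It measured 2.13, 1.87 and 3.06 CPM in R and 0.592, 0.721 and 0.841 in UC, and VC-R replicate 1 (2.05 CPM) and VC-T replicate 1 (2.15 CPM) lay inside the range of R. The call was lost without the 4 clusters of few UMIs, at 1.08 ± 0.62 with an edgeR adjusted p of 0.386.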

How the data were processed

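Single-cell 3′ RNA-seq was measured in 15 libraries. The files deposited by the authors hold raw UMI counts for each gene in each barcode, from Cell Ranger (version 3.0.0 in the submitters' processing notes, 7.0.0 in the matrix headers) on mm10. Whether introns were counted is not given in the sources used here. Ambient RNA correction and doublet removal of the study came after these counts. Groups came from the sample labels. All samples were sequenced together, so no batch could be compared.

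A barcode was retained from 500 genes and 1000 UMIs upward if its mitochondrial share was below 30%, and the 5.4% with the highest doublet score per library were removed. Cells were scaled to 10000 UMIs, and 2000 variable genes without the members and the partner list (61 genes), 30 components, 20 neighbours and Leiden resolution 1.2 (scanpy 1.11.5, Python 3.11.15) gave clusters, which were named from fixed markers. Diffusion pseudotime was cut into 51 bins. UMIs were summed per library and class or segment where at least 10 cells were present, filtered by filterByExpr, scaled by TMM and tested with edgeR 4.0.16 (quasi-likelihood, R 4.3.3) over 14 libraries, with Benjamini-Hochberg adjustment over all genes tested. DESeq2 1.42.0 was an alternative. The test was checked on simulated data: in spermatocyte-like cells, T against UC, 67% of 100 genes changed by 1.5 on the log2 scale and 92% of those changed by 3 were recovered among 13576 genes.

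Values are CPM of the summed UMIs. Levels are mean ± SD over libraries and fold changes ± SE. The members, lists and segments were chosen with earlier results of these data known, and the spermatid segments after seeing these values. All members are reported; of the partner list, at most the 3 smallest adjusted p per direction in spermatocyte- and spermatid-like cells; and the 2 genes most like each member. The Ccnb3 and Arpp19 values within segments were chosen after their class values were seen. Replicates are different mice.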

Additional observations from a re-analysis of the deposited data

Results flagged for a closer look

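Plk1 in D2, the second spermatid-like segment, stood on opposite sides of UC in T and R. The mean difference was -30.519 CPM for T minus UC and 15.958 CPM for R minus UC, and every T library lay below and every R library above all UC libraries. VC-T replicate 2, a vehicle library, stood at 100.9 CPM, above R replicate 1 at 100.4 CPM. The difference between the 2 effects was not tested. The edgeR log2 fold change was -0.67 ± 0.14 in T (adjusted p = 0.00200) and 0.14 ± 0.13 in R (adjusted p = 0.553). With 3 libraries per group, single libraries could not be tested as outliers.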

How the results depend on the processing

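Counts of called members stayed at 0 under every alternative run for spermatocyte-like cells (T and R), spermatogonia-like, spermatid-like and spermatozoa-like cells in R, and the spermatocyte-like segments in R. In spermatogonia-like cells, T against UC, 1 member was called with the same-time vehicle group as control and 4 among cells with at least 2000 UMIs. In spermatid-like cells of T, 3 passed on the adjusted p alone, and leaving out 1 replicate gave 0 to 1. In the 6 spermatocyte-like segments of T, 1 pair was called with no filter on low counts, 2 on the adjusted p alone, 3 against the vehicle group and 1 against all 3 VC-T libraries, with 0 to 1 on leaving out a replicate. Those against the vehicle group, which has the age of T, were Pttg1 in S1, Aurkc in S2 and Ccnb1 in S3. Aurkc was lower in T, and Pttg1 and Ccnb1 (edgeR adjusted p of 0.0407) were higher. The pair against all 3 VC-T libraries was Pttg1 in S1, at 1.08 ± 0.26 with an edgeR adjusted p of 0.0120. In the 4 spermatid-like segments of T, the main count of 1 became 3 on the adjusted p alone, 2 with the replicate block, and 0 with all 15 libraries, with only the 2 groups compared, with all 3 VC-T libraries as control or with cells of at least 2000 UMIs, and it was 0 to 1 on leaving out a replicate. In R, the main count of 1 became 6 on the adjusted p alone, 2 with only the 2 groups compared or against the vehicle group, and 0 with DESeq2, with the replicate block, with cells of at least 2000 UMIs or without the 4 clusters of few UMIs, and 0 to 3 on leaving out a replicate. The share of spermatocyte-like cells in the last segment, T against controls, changed sign to 0.945 points without the cluster that carries protamine. The causes were not tested. The replicate numbers do not pair the libraries: in spermatocyte-like cells the same-number correlations were 0.760, 0.442 and 0.0960 for T with UC and -0.644, -0.793 and 0.356 for R with UC, and not every library correlated best with its own number. The block changed no count of called members in the classes. Of 1067 member log2 fold changes in classes under alternatives, 975 kept their side of the threshold and, where not called, moved by under 1 SE. In segments it was 2610 of 2799. Signs did change in both. Plk1 in spermatid-like cells of T was at 0.05 in the main fit and -0.61 in its lowest alternative. In D4 of T it was at 0.41 and -6.54. Counts over all genes moved more. In T they went from 269 to between 0 (all 3 VC-T libraries as control) and 728 (vehicle group) in spermatogonia-like cells, from 620 to 62 (all 3 VC-T libraries) in spermatocyte-like cells, and from 2847 to 247 (pseudotime matched) in spermatid-like cells. In R the 698 of spermatid-like cells became 0 without the 4 clusters of few UMIs. T could not be matched by pseudotime in spermatozoa-like cells, where 1 cell per library was left.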

Other observations

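Other partner genes were called within segments. In S1 of T against UC, Pkmyt1, an inhibitory Cdk1 kinase, was higher at 1.40 ± 0.36 and Anapc5, a subunit of the anaphase-promoting complex, was lower at -1.88 ± 0.29, with edgeR adjusted p of 0.00423 and 5.13e-06. Wee1, another inhibitory Cdk1 kinase, was higher in S2 of T, at 1.53 ± 0.41 with an edgeR adjusted p of 0.0247, and Anapc5 was lower in D2, at -1.08 ± 0.34 with an edgeR adjusted p of 0.0471. In R, 4 of 36 tested partner genes were called in D3, all higher, against 5.25% of all pairs of gene and spermatid-like segment. They were Cks2 at 1.24 ± 0.30, Mastl at 1.24 ± 0.38, Sgo2a at 1.48 ± 0.42 and Tpx2 at 1.87 ± 0.41. Without the 4 clusters of few UMIs only Tpx2 was still called, at 1.77 ± 0.49 with an edgeR adjusted p of 0.0283, and the values were 0.61 ± 0.29 for Cks2, -0.19 ± 0.39 for Mastl and 1.31 ± 0.43 for Sgo2a. In D4, 4 of 35 were called in T and 4 in R, against 6.44% and 5.25% of all pairs of gene and spermatid-like segment. Without the 4 clusters of few UMIs, Bub1 and Wee1 were still called higher in T, and Arpp19 and Ensa were not called. In R, Cdc26, Cdca8 and Cks2 were then not called, with edgeR adjusted p of 0.788, 0.819 and 0.505, and Sgo2a had no value. In spermatogonia-like cells of T, 1 of 45 tested partner genes was called, Hspa2, a chaperone that binds Cdk1 in spermatocytes, at 1.29 ± 0.24 with an edgeR adjusted p of 0.00241. These genes were named after their values were seen.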
